A study of Mus musculus with 6 samples.

Results

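The response of bone to growth hormone (GH) at 24 hours was set against the response at 6 hours, over all 6 arrays of the study, 3 at each time. Every animal, controls included, was a C57BL/6J-Ghrhr<lit> (lit/lit) mouse, 4 weeks old, whose disrupted gene for the GH-releasing hormone receptor leaves it short of GH. One group had been given GH once under the skin, at a dose of 4 mg/kg of body weight, and the other group PBS, and bone was taken 6 or 24 hours later. A sample was pooled RNA of 2 animals, and each array held 1 GH pool labelled with Cy5 and 1 PBS pool labelled with Cy3. Arrays 1, 2 and 3 (the replicate numbers of the labels) are the 6-hour arrays, and arrays 4, 5 and 6 are the 24-hour arrays. Each value is a log2 ratio that is likely GH over PBS, from the dyes and the channel order. The dyes were never swapped. A dye effect that all arrays share drops out of the difference between the times, but a dye effect that differs between arrays does not. Each array had its own PBS pool, so the difference of the ratios also carries any change between the PBS pools of the 2 times.

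GH binds its receptor on the cell surface and activates the kinase JAK2, which phosphorylates STAT5, and STAT5 moves to the nucleus and drives target genes. Among those targets are insulin-like growth factor 1, which carries much of the growth effect in bone and cartilage, and CISH and SOCS proteins, which feed back to dampen the receptor. A response at 6 hours would hold more of the direct targets and one at 24 hours more of the later effects on matrix, proliferation and metabolism, and the comparison of the times addresses which genes and functional groups differ between these stages. The tissue was whole bone, which holds marrow, cartilage and attached muscle beside bone cells. In such bulk RNA, fewer cells of a type and less RNA per cell cannot be told apart. The table gives ratios and no signal levels, so the presence of bone markers could not be checked by level.

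The arrays held from 18302 to 19961 values each. Their spreads were unequal, with SDs over all values from 0.466 on array 1 to 0.913 on array 6, and their medians lay between -0.0145 and 0.0286. Files of arrays 4 and 6 began with a different code from those of arrays 1, 2, 3 and 5, so array 5 is the only 24-hour array that shares its code with the 6-hour arrays, and a value from array 5 alone against arrays 1 to 3 is given below as the value within that code. No gene passed the test of the difference between the times. At a Benjamini-Hochberg adjusted p below 0.05 in limma, 0 of 16676 features (genes, or single unnamed rows) were called, which is 0.00%, and the smallest adjusted p was 0.981. At an unadjusted p below 0.05 there were 500 features, or 3.00%. Of these, 229 were higher and 271 lower at 24 hours. Every difference below is therefore a measured value that did not pass the test, and the words higher and lower give its sign only.

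Most features had closely similar ratios at both times. Over the 15125 features with a value on all 6 arrays the median absolute difference was 0.17 on the log2 scale and the 90th percentile was 0.52, beside a median SD of 0.30 among arrays of 1 time. The median half-width of the 95% interval of a difference was 0.59, a 1.51-fold change of the ratio. Smaller shifts between the times were thus not resolvable for a typical gene with 3 arrays a time. The interval is not adjusted for the number of features. Larger differences did not pass the adjusted test either, so the half-width is not a size above which shifts would have been called. Differences lay on both sides of 0, with 52.1% of features above 0 and a median of 0.01. All 3 arrays of 24 hours lay above all 3 of 6 hours in 748 features (4.95%) and below them in 557 (3.68%), and these shares are the background for every count of genes without overlap. Among the 8401 named features with values on all 6 arrays, 365 were higher without overlap and 408 lower. The lists hold named genes only. The share over all features is thus not the share of named genes, in which lower outnumbered higher.

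**Figure D1:**
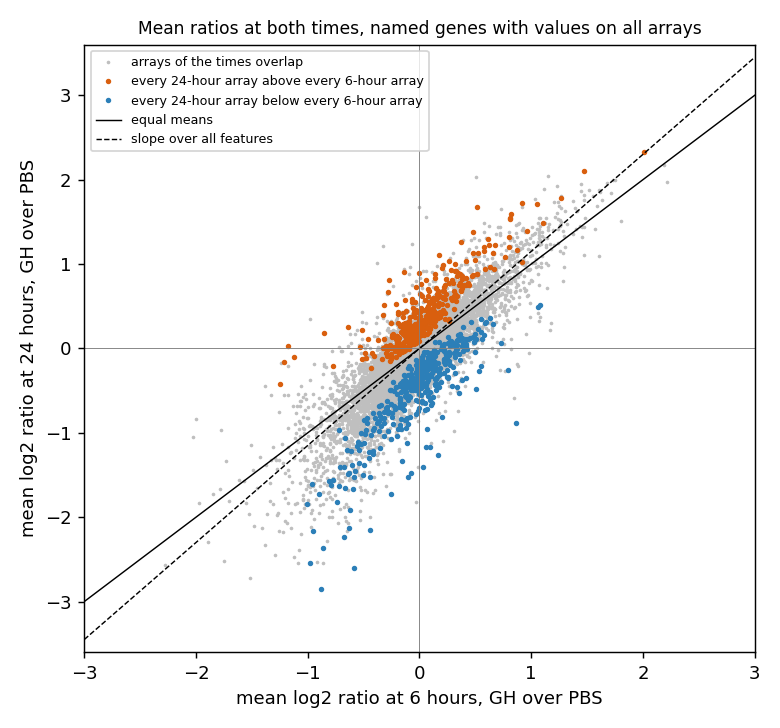
Mean log2 ratio of the 3 arrays at 24 hours (vertical axis) against the mean of the 3 arrays at 6 hours (horizontal axis) for the 8401 named genes with values on all 6 arrays, coloured where the arrays of the times do not overlap; lines mark equal means and the slope over all features. The points lie along the diagonal, and over all 15125 features the slope through 0 was 1.15 and r was 0.86.

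The ratios at the 2 times ran along the same axis. Over features, the mean ratio at 24 hours and the mean ratio at 6 hours had a Pearson r of 0.86, and 82.2% of features had the same sign at both times. Genes share their arrays, dyes and probes, so this r is a description and carries no p. The dyes were never swapped, and the part of a shared dye effect in this r was not tested. The slope through 0 of the 24-hour mean on the 6-hour mean was 1.15, and the SD over features was 0.628 at 24 hours and 0.468 at 6 hours. The larger amplitude at 24 hours rested on array 1, the array of least spread: without it the slope was 0.904. Among the 1305 features without overlap, 689 had the same sign at both times and were farther from 0 at 24 hours, 142 had the same sign and were nearer 0 at 24 hours, and 474 had opposite signs.

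Single arrays bore very unequally on the difference. Array 1 stood apart from all others, with a mean r over features of 0.274 with the other 6-hour arrays and 0.304 with the 24-hour arrays, and its highest r, 0.366, was with array 5. Arrays 2 and 3 correlated with each other at 0.765, but each had its highest r with a 24-hour array, array 4, at 0.802 and 0.816. Their mean r with the 24-hour arrays was 0.714 and 0.710, above the means of 0.527 and 0.512 with their own time, which include array 1. Array 4 had a mean r of 0.648 with its own time and 0.620 with the other, array 5 of 0.598 and 0.524, and array 6 of 0.664 and 0.584. These orders rested on array 1 and turned without it: arrays 2 and 3 then had a mean r of 0.765 with their own time against 0.714 and 0.710 with 24 hours. Array 4 then had a mean r of 0.809 with arrays 2 and 3 against 0.648 with its own time, array 6 of 0.725 against 0.664 and array 5 of 0.602 against 0.598.

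The same inequality was seen in where each array fell. Array 1 lay above the whole range of the 24-hour arrays in 28.8% of features and below it in 35.5%. Arrays 2 and 3 did so far less often, in 18.7% and 19.2% of features above and 19.9% and 19.8% below. Of the 24-hour arrays, array 6 lay outside the 6-hour range most often, above it in 30.0% and below it in 26.7%, followed by array 4 at 27.6% and 19.3% and array 5 at 20% and 21.9%. The slope of each array on the mean of the other time ran from 0.242 for array 1 and 0.895 for array 5 to 1.38 for array 6. Leaving out array 6 reduced the features at an unadjusted p below 0.05 from 500 to 319, and leaving out array 4 raised them to 775, with a smallest adjusted p of 0.561. Without array 1 that count was 431. The share without overlap was then 7.97% higher and 6.72% lower at 24 hours, with 1 array less to separate. Weights that limma estimated from the residuals gave array 1 a weight of 0.399 and array 2 a weight of 3.39.

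**Figure D2:**
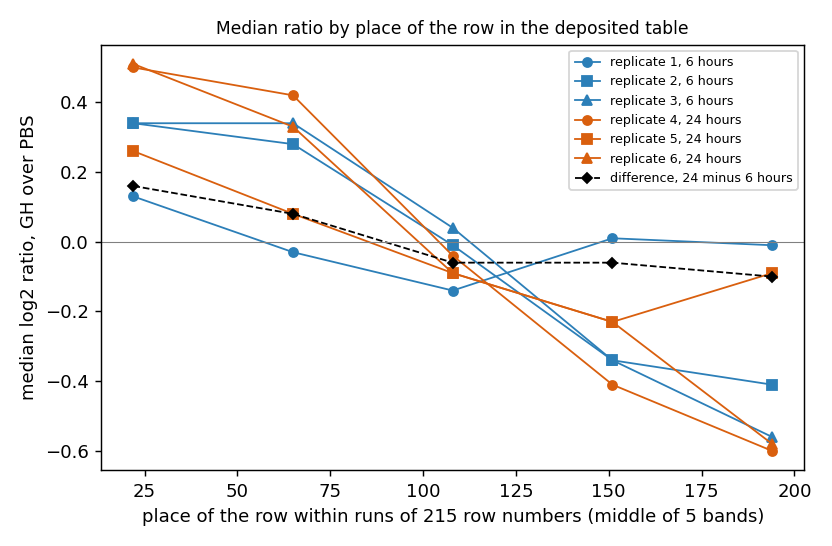
Median log2 ratio in 5 bands of the place within runs of 215 row numbers (horizontal axis, band 1 to 5), one line for each of the 6 arrays and one for the difference, 24 minus 6 hours. Arrays 2, 3, 4 and 6 run from above 0.3 in band 1 to below -0.4 in band 5, arrays 1 and 5 vary less, and the difference runs from 0.16 to -0.10.

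Ratios followed the row number of the deposited table, a place on a list and not a property of a gene. Row numbers ran up to 22575, and values repeated a pattern with a period of 215, the divisor of that number at which rows correlated best. From the first to the last of 5 bands of that period the median ratio went from 0.50 to -0.60 on array 4, from 0.51 to -0.58 on array 6, from 0.34 to -0.56 on array 3 and from 0.34 to -0.41 on array 2. Array 1 went only from 0.13 to -0.01 and array 5 from 0.26 to -0.09. Much of the pattern dropped out of the difference between the times but not all: its median went from 0.16 to -0.10. Differences of rows 1 place apart had an r of 0.248 and of rows 215 apart an r of 0.247, which became 0.0930 and 0.0892 after a smooth over row position had been subtracted from each array. With the smooth subtracted, 5.03% of features were higher and 4.48% lower without overlap, r of the time means was 0.803 and the slope 1.08. The trend moves with the differences of single genes. The value after its subtraction, called trend-subtracted, is therefore given beside a named gene where it is over 1.5 times larger or smaller. Where the subtraction ends or starts an overlap, that is stated, with or without the value. The part of the trend in the remaining differences was not tested. For the 1809 genes read by at least 2 rows, the differences given by a pair of rows had an r of 0.0453 over genes. The mean ratios over the 6 arrays had an r of 0.0333 between such rows. A second row of a gene thus seldom repeated the first.

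**Figure D3:**
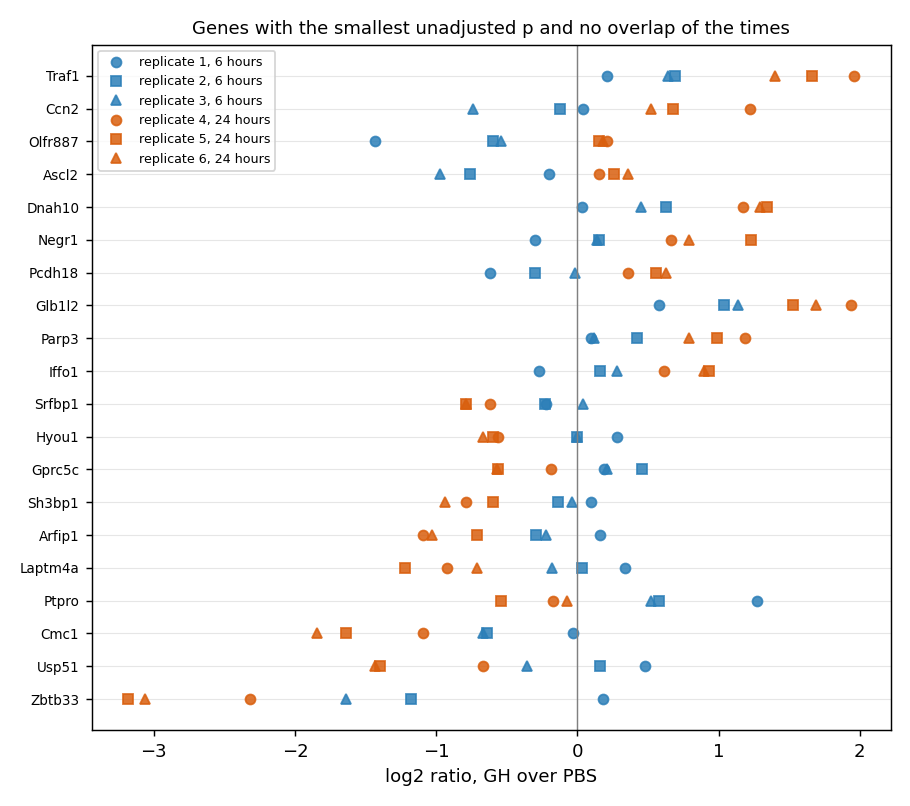
Log2 ratio on each of the 6 arrays for the 20 named genes with the smallest unadjusted p, 10 higher and 10 lower at 24 hours; points are single arrays, coloured by time, and no error bar is drawn. In each of the 20 genes the arrays of the times do not overlap, as the choice of genes required.

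Of the named genes higher at 24 hours without overlap, the 10 with the smallest unadjusted p had differences from 0.76 to 1.16 log2 units, with unadjusted p from 0.00163 to 0.00937 and an adjusted p of 0.981 each (limma, Benjamini-Hochberg). Traf1, an adaptor of tumour necrosis factor receptors, read 0.21, 0.69 and 0.64 on the 6-hour arrays and 1.96, 1.66 and 1.40 on the 24-hour arrays. All 6 ratios were above 0, with every 24-hour ratio at least 1 unit above 0. The difference was 1.16 ± 0.22 (SE; 95% interval 0.62 to 1.70), 1.14 within the shared file code and 0.74 after subtraction of the row trend. Ccn2 (connective tissue growth factor), a matrix-associated protein of skeletal and fibrous tissue, read 0.04, -0.12 and -0.74 at 6 hours and 1.22, 0.68 and 0.52 at 24 hours. Its ratios were near or below 0 early and above 0 on all late arrays, and the difference was 1.08 ± 0.29. With the row trend subtracted the difference of Ccn2 was 0.87 and the times overlapped.

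Ascl2, a basic helix-loop-helix transcription factor, read -0.20, -0.76 and -0.97 at 6 hours and 0.15, 0.26 and 0.36 at 24 hours. It was below 0 on every early array and above 0 on every late one, a difference of 0.90 ± 0.23. Pcdh18, a protocadherin of cell adhesion, had a like pattern, with -0.62, -0.30 and -0.02 early and 0.36, 0.56 and 0.63 late, a difference of 0.83 ± 0.21. Its 2 rows gave differences of 0.85 and 0.81, each with overlap, from ratios of opposite sign on most arrays. Olfr887, an olfactory receptor gene, read -1.43, -0.60 and -0.54 early and 0.21, 0.15 and 0.18 late, and its difference of 1.04 ± 0.27 was 0.55 after the row trend was subtracted. Negr1, a cell adhesion molecule best known from neurons, read -0.30, 0.15 and 0.14 and then 0.66, 1.23 and 0.79, a difference of 0.90 ± 0.23. The ratios of Parp3, an ADP-ribosyltransferase of DNA break repair, were 0.10, 0.42 and 0.12 early and 1.19, 0.99 and 0.79 late, a difference of 0.77 ± 0.19. For Dnah10, a heavy chain of ciliary dynein, Glb1l2, a relative of beta-galactosidase, and Iffo1, an intermediate filament protein, the differences were 0.90 ± 0.20, 0.80 ± 0.22 and 0.76 ± 0.21, the last 0.32 trend-subtracted. Dnah10 and Glb1l2 were above 0 on all 6 arrays, so both times held the same sign.

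Among the 10 chosen in the same way below 0 the differences ran from -0.59 to -1.97, with unadjusted p from 0.0029 to 0.00942 and an adjusted p of 0.981 each (limma, Benjamini-Hochberg). Laptm4a, a membrane protein of lysosomes, read 0.34, 0.03 and -0.18 at 6 hours and -0.92, -1.22 and -0.71 at 24 hours. Early ratios lay around 0 and late ratios were all below -0.7, a difference of -1.01 ± 0.22 (95% interval -1.54 to -0.49). Zbtb33 (Kaiso), a zinc finger repressor that binds methylated DNA, had the widest difference of the 20, -1.97 ± 0.50, from 0.18, -1.18 and -1.64 early to -2.32, -3.18 and -3.06 late. Arrays 2 and 3 were already well below 0, while array 1 was not. Ptpro, a receptor tyrosine phosphatase, read 1.27, 0.58 and 0.52 early and -0.17, -0.54 and -0.07 late. It went from above 0 on all early arrays to below 0 on all late ones, with a difference of -1.05 ± 0.26.

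Gprc5c, an orphan receptor, had the same pattern of signs in the mean of its 2 rows, with 0.19, 0.46 and 0.21 early and -0.19, -0.56 and -0.57 late, and the rows gave differences of -0.77 and -0.68 (mean -0.73 ± 0.18). Arfip1 (arfaptin 1), a protein of the Golgi, read 0.16, -0.29 and -0.22 and then -1.09, -0.71 and -1.03, a difference of -0.83 ± 0.20. For Arfip1 the early ratios straddled 0 and the late ones were all negative. Usp51, a deubiquitinase, Cmc1, a mitochondrial protein of cytochrome oxidase assembly, and Srfbp1, a partner of serum response factor, had differences of -1.26 ± 0.31, -1.08 ± 0.28 and -0.59 ± 0.16. The chaperone Hyou1, also among the 10, is described with its group below. After subtraction of the row trend all 20 differences had the same sign, from 0.32 to 1.01 in the higher genes and from 0.46 to 1.79 in size in the lower ones, and 9 of 10 in each direction had no overlap. Within the shared file code the choice of genes without overlap fixed the sign of all 20. The sizes there ran from 0.61 to 1.24 and from 0.57 to 2.30.

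**Figure D4:**
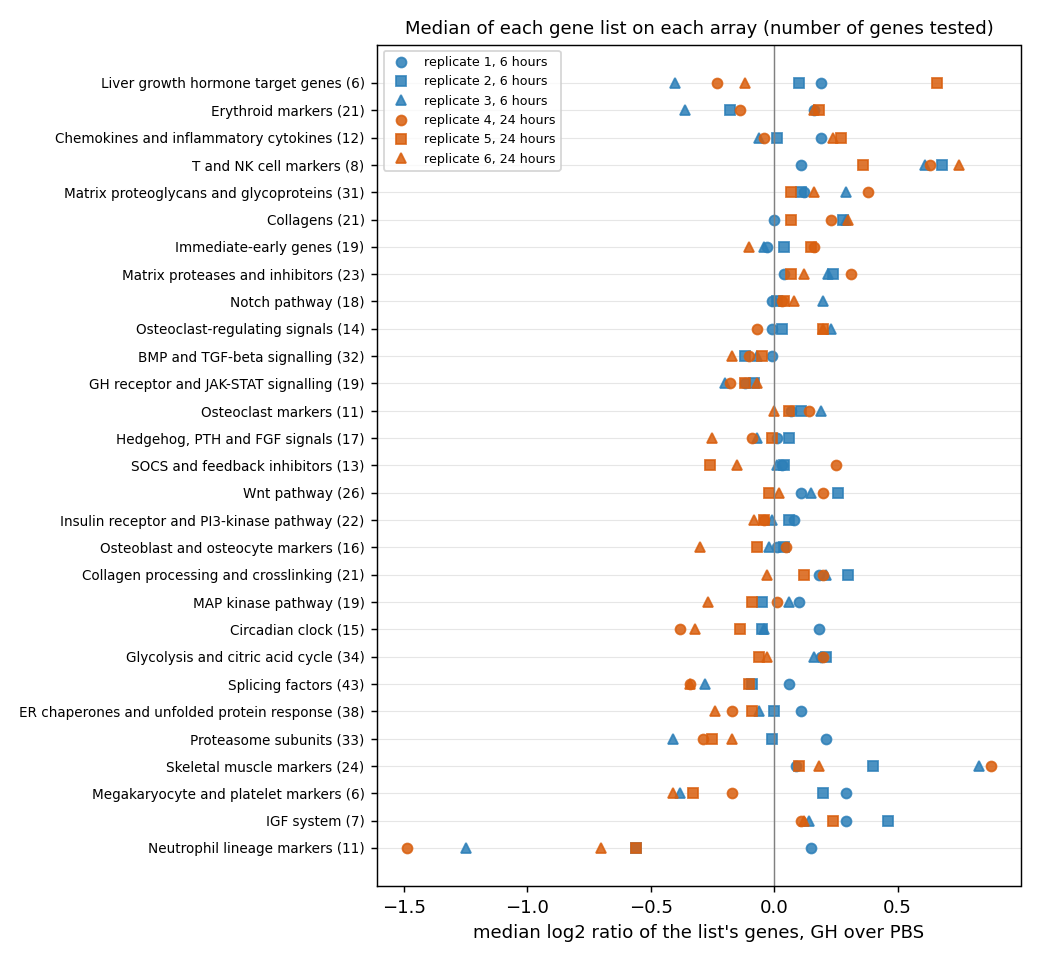
Median log2 ratio of the described gene lists with at least 5 measured members (1 line each, number of genes in parentheses) on each of the 6 arrays, with a colour for each time and a symbol for each array. The points of the times overlap in all the lists drawn but the PI3-kinase, endoplasmic reticulum and circadian ones.

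Functional groups were read through 55 lists with at least 5 measured members, 30 of them described here. Medians were below 0 in 37 of the 55 lists and above 0 in 17, next to 0.01 over all features, and the largest was 0.51 in size. The median over all features includes unnamed rows, and the lists hold named genes only. Whether named genes in general lean below 0 to the same degree was not tested. In 3 lists the 6 array medians did not overlap between the times: the insulin receptor and PI3-kinase pathway, the endoplasmic reticulum chaperones and the circadian clock. The sign of the median was kept when each array in turn was left out in 32 lists. Array 6 lay outside the range of the other time's list medians in 33 lists and array 1 in 31, and this held for 19 lists for array 2. No member of any list passed the test of the difference.

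Growth hormone receptor and JAK-STAT genes gave no shift as a group: of 19 measured members of 26, 8 were above and 11 below 0, and the median difference was -0.03 (from -0.08 to 0.03 when each array was left out). Cish, the feedback inhibitor induced by STAT5, read 0.33, 0.58 and 0.57 at 6 hours and 0.37, 0.31 and 0.93 at 24 hours. It was above 0 on every array at both times, and its difference was 0.04 (0 trend-subtracted) with a 95% interval from -0.49 to 0.57, so an increase or a decrease of up to these sizes was within the error. Socs3, a related feedback inhibitor, was higher by 0.34 ± 0.19 with overlap and by 0.15 trend-subtracted. Over the SOCS and feedback list 6 of 13 measured members were above 0 and 7 below. Ghr, the receptor itself, differed by 0.01 ± 0.21 (0.07 trend-subtracted). Stat5a read -0.17, -0.67 and -0.43 early and -0.62, -0.62 and -0.97 late, a difference of -0.32 ± 0.20, and Stat5b differed by 0.12 ± 0.16, or by -0.12 trend-subtracted. Stat3 had no overlap, with -0.17, 0.26 and 0.14 early and 0.36, 0.38 and 0.77 late, but its difference of 0.42 ± 0.20 was -0.02 after subtraction of the row trend. Jak1, Tyk2 and Jak2, the kinases of the family, were lower by measured values of -0.32, -0.82 and -0.34 with SEs of 0.20, 0.46 and 0.41.

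Of the insulin-like growth factor genes, 3 of 7 measured members were above and 4 below 0, with a median of -0.25 that was -0.03 without array 6, -0.04 without array 4, -0.08 trend-subtracted and -0.01 within the shared file code. Igf1 read 0.77, 0.57 and -0.16 at 6 hours and 0, 0.39 and -0.43 at 24 hours. The times overlapped, the difference was -0.41 ± 0.32 (95% interval -1.18 to 0.37), and its 3 rows gave -0.28, -0.18 and -0.76 from unlike ratios. The second of these rows was close to or above 1 on all 6 arrays, from 0.99 to 1.64, while the others lay on both sides of 0. Igf2 was above 0 on all arrays, with 0.11, 0.47 and 0.67 early and 0.82, 0.57 and 0.74 late, a difference of 0.29 ± 0.20 that was 0.08 trend-subtracted. Igfbp3, the main carrier of IGF in blood, was above 0 on all arrays too and differed by 0.17 ± 0.18 (0.09 trend-subtracted). Of the other binding proteins, Igfbp5 differed by -0.25 ± 0.19, or -0.08 trend-subtracted, and Igfbp4 by -0.33 ± 0.20 with overlap, or -0.65 without overlap when trend-subtracted. Igf1r, the receptor, differed by 0.43 ± 0.30 with overlap (0.39 without overlap trend-subtracted), but its 3 rows gave 0.91, 0.01 and 0.38.

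Genes of the insulin receptor and PI3-kinase pathway, which links receptors to growth and protein synthesis through AKT and mTOR, had list medians of 0.08, 0.06 and -0.01 at 6 hours and -0.04, -0.04 and -0.08 at 24 hours. The medians did not overlap, but the median difference was only -0.08 (from -0.12 to -0.05 when each array was left out), with 14 of 22 measured members below 0. Of 21 members with values on all arrays, 4 were lower without overlap and 0 higher, next to 3.68% and 4.95% of all features. Mtor, the kinase at the end of the pathway, read -0.10, -0.62 and 0.82 early and -0.81, -1.15 and -2.25 late, a difference of -1.43 ± 0.50 (unadjusted p = 0.0251, adjusted p = 0.981, limma with Benjamini-Hochberg). Array 3 was its highest and array 6 its lowest value, and without 1 array the difference ran from -1.76 to -1.01. Irs1, which docks at the insulin and IGF-1 receptors, read -0.34, 0.08 and -0.26 early and -0.86, -0.53 and -0.40 late. Its difference was -0.42 ± 0.20, and its 2 rows gave -0.55 with overlap and -0.29 without overlap. The remaining 2 without overlap, Akt1 (-0.41) and Rptor (-0.21), a partner of mTOR, were named after their values were seen. Pik3cb and Pik3r3, subunits of PI3-kinase, had differences of -1.61 ± 0.66 and -1.46 ± 0.69, in which array 6 alone read -3.84 and -4.06; both had overlap, which ended for Pik3cb (-1.47) when trend-subtracted.

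MAP kinase genes had a median of -0.13, which was -0.04 without array 6, -0.06 without array 3 and -0.22 trend-subtracted, with 11 of 19 measured members below 0. Map2k1 and Map2k2, the MEK kinases, were both lower without overlap: Map2k1 read 0.11, -0.43 and -0.36 and then -0.84, -0.51 and -0.69, and Map2k2 read 0.45, -0.27 and 0.03 and then -0.32, -0.29 and -0.41. Their differences were -0.45 ± 0.21 and -0.41 ± 0.22, and array 1 was the highest value of each. Immediate-early genes, which growth factors switch on within an hour, had a median of 0.08 (0.17 without array 6) with 12 of 19 above 0. Of the 19, 2 were higher and 1 lower without overlap, next to 4.95% and 3.68% of all features. When trend-subtracted these counts were 0 and 1, next to 5.03% and 4.48%. Fos read 0.08, 0.90 and 0.41 early and 0.86, 0.96 and 0.92 late, above 0 throughout and with overlap, a difference of 0.45 ± 0.24. Klf2, a zinc finger factor of endothelium and lymphocytes, was higher without overlap, from 0.16, 0.06 and 0.07 to 0.42, 0.61 and 0.58, with a small spread within each time and a difference of 0.44 ± 0.15 that was 0.31 with overlap when trend-subtracted. Srf, the factor that drives many of these genes, was lower without overlap by a value of -0.33 ± 0.16, in which its rows gave -0.48 and -0.19.

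Developmental signals of the skeleton differed little as groups. Medians were -0.08 for 26 Wnt genes, -0.01 for 32 BMP and TGF-beta genes, -0.07 for 17 hedgehog, PTH and FGF genes and 0.05 for 18 Notch genes. When each array was left out these ran from -0.14 to 0.01, from -0.02 to 0.03, from -0.11 to 0.02 and from 0.02 to 0.08, so the sign of the first 3 was not kept. Gli2, a transcription factor of hedgehog signalling, went from above 0 on all early arrays (0.10, 0.04 and 0.21) to below 0 on all late ones (-0.22, -0.49 and -0.04), a difference of -0.37 ± 0.18 with the same value within 0.01 after subtraction of the row trend. Gli1, itself a hedgehog target, differed by -0.36 ± 0.21 with overlap, or -0.16 trend-subtracted. Tcf7l2, the nuclear partner of beta-catenin, was higher without overlap by 0.41 ± 0.25 in the mean of its 2 rows only. Each row of Tcf7l2 had overlap, with differences of 0.50 and 0.31. Gdf10, a BMP family ligand, was higher without overlap by 0.36 ± 0.18, or by 0.21 with overlap when trend-subtracted. Hey2, a Notch target, was far above 0 at both times, from 1.17 to 1.87 early and from 1.68 to 2.05 late. Its difference was 0.42 ± 0.24 with overlap, so its large ratios were shared by both times.

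Among bone cells, osteoblast and osteocyte markers had 6 of 16 measured members above 0 and a median of -0.10, which was 0.04 without array 6, between -0.16 and -0.07 without any other, and -0.19 trend-subtracted. Msx1, a homeobox gene of bone-forming cells, was higher without overlap, with -0.45, 0.51 and 0.54 early and 0.61, 1.11 and 1.13 late. Array 1 was apart from arrays 2 and 3, and the difference of 0.76 ± 0.32 was 0.35 with overlap after the row trend was subtracted. Col1a2, a chain of type I collagen, the main protein of bone matrix, differed by -0.42 ± 0.21 with overlap. Col1a1, the other chain, named after its values were seen, differed by 0.02 ± 0.19 with overlap, or -0.24 trend-subtracted. Phex, an osteocyte endopeptidase of phosphate balance, differed by -0.22 ± 0.17. Only 4 of 26 chondrocyte markers were measured; Col2a1, the collagen of cartilage, was below 0 on all arrays and differed by 0.22 ± 0.31. Osteoclast markers had 4 of 11 above 0 and a median of -0.07 (from -0.12 to -0.03 when each array was left out). Mmp9, a gelatinase that osteoclasts make, read 0.06, 0.11 and 0.01 early and -0.38, -0.27 and -0.66 late. Early ratios were close to 0 and late ratios below it, and both of its rows gave nearly the same difference, -0.51 and -0.48 (mean -0.50 ± 0.17, unadjusted p = 0.0239, adjusted p = 0.981, limma with Benjamini-Hochberg). Tnfrsf11b (osteoprotegerin), the decoy that restrains osteoclasts, read -0.01, -0.06 and 0.25 and then 0.15, 1.29 and 1.30, high on arrays 5 and 6 only, a difference of 0.85 ± 0.34 with overlap, and of the same size without overlap when trend-subtracted. Tnfsf11 (RANKL), the ligand it blocks, differed by -0.24 ± 0.18.

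Matrix genes had list medians close to 0. They were 0.08 for 21 collagens, 0.09 for 31 proteoglycans and glycoproteins, 0.06 for 23 proteases and inhibitors and -0.11 for 21 collagen-processing enzymes. Without array 1 the collagens were at -0.03 and the proteases at -0.01, without array 4 the proteoglycans were at 0.01 and without array 6 the processing enzymes at -0.04, so single arrays removed most of each median and turned 2 of them. Col12a1, a fibril-associated collagen, was higher without overlap, with 0.03, 0.32 and 0.53 early and 0.82, 0.66 and 0.95 late, a difference of 0.52 ± 0.19 (0.34 trend-subtracted, without overlap). Fmod (fibromodulin), a small proteoglycan on collagen fibrils, read 0.07, 0.38 and 0.51 and then 1.68, 0.71 and 0.61. Array 4 was by far its highest value, and the difference of 0.69 ± 0.32 ranged from 0.35 to 0.88 when each array was left out and was 0.65 with overlap when trend-subtracted. Matn2 (matrilin 2), Lamc1 (a laminin chain) and Nid1 (nidogen), of matrix and basement membrane, were higher without overlap by 0.48 ± 0.21, 0.39 ± 0.21 and 0.34 ± 0.18. When trend-subtracted, Lamc1 (0.25) and Nid1 (0.15) overlapped. Another row of Lamc1, without values on arrays 2 and 5 and left out of its value, gave a difference of -1.10. Of the 30 members of the proteoglycan and glycoprotein list with values on all arrays, 5 were higher without overlap, next to 4.95% of all features. With the row trend subtracted only 1 was higher and 1 lower, next to 5.03% and 4.48%. Plod3 and P4hb, a lysyl hydroxylase and the disulfide isomerase subunit of prolyl hydroxylase, were lower without overlap by small values, -0.24 ± 0.16 and -0.19 ± 0.15, the latter -0.32 trend-subtracted.

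Chaperones of the endoplasmic reticulum and genes of the unfolded protein response fold secreted proteins such as collagen, and many are driven through the ER stress element, which ATF6 binds together with NF-Y. The element was searched in the 250 bases before the annotated start and the 50 after it, as CCAAT, 9 bases of any kind and CCACG, on either strand, in promoters from RefSeq on GRCm38.p6. It was found in 8 of 32 measured list genes with a window (25.0%), in 15 of 7119 tested genes (0.211%) and in 39 of all 32851 windows (0.119%). A match is a description of letters and no sign of binding. Of the 7 list genes lower without overlap and with a window 2 held it (28.6%), a share close to that of the whole list. The other 6 list genes with the element all had overlap between the times. Their differences were -0.70 for Hsp90b1, -0.19 for Hspa5, -0.15 for Derl3, -0.10 for Calr, 0.06 for Creld2 and 0.04 for Syvn1. The 250 bases before the start are shown for the classical chaperone of the element and for the 2 list genes that held it and were lower without overlap, with both parts of the element in capitals (CGTGG and ATTGG where it lies on the other strand); Hspa5 (BiP) is chr2:34771840-34772089 on the plus strand, Canx (calnexin) chr11:50325674-50325923 on the minus strand and Dnajc3 (p58IPK) chr14:118937682-118937931 on the plus strand.
Hspa5: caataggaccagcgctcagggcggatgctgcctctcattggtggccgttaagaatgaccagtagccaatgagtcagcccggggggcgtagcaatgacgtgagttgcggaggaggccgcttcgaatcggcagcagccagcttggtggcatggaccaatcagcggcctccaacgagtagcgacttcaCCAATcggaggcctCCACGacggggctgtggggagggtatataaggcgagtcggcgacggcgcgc
Canx: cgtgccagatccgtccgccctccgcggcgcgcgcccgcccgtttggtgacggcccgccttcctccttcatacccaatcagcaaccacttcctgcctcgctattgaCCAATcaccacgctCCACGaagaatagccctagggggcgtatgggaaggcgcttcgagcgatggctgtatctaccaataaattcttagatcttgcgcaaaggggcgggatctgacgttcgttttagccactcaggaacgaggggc
Dnajc3: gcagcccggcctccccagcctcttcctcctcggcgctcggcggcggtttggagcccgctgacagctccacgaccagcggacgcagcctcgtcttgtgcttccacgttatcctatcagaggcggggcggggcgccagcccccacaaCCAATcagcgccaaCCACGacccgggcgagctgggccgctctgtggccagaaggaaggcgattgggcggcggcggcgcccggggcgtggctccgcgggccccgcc

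This list was lower at 24 hours in most members, by small values. Medians were 0.11, 0 and -0.06 on the 6-hour arrays and -0.17, -0.09 and -0.24 on the 24-hour arrays, so the times did not overlap, with array 1 highest and array 6 lowest. Of 38 measured members of 43, 30 were below 0, and the median difference was -0.17 next to 0.01 over all features. It was -0.06 without array 1, -0.07 without array 6 and between -0.22 and -0.15 without any other, and it was -0.12 within the shared file code and -0.06 without both arrays 1 and 6. After subtraction of the row trend it was -0.11, with 35 members below 0. Of 36 members with values on all arrays, 8 were lower without overlap, next to 3.68% of all features, and 1 was higher; after subtraction of the row trend these counts were 5 and 0, next to 4.48% and 5.03%.

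Hyou1, an ER chaperone of the HSP70 family, read 0.28, 0 and 0 at 6 hours and -0.56, -0.60 and -0.67 at 24 hours. Ratios were at or above 0 early and in a narrow range well below it late, and the difference was -0.70 ± 0.16 (95% interval -1.08 to -0.31; unadjusted p = 0.00394, adjusted p = 0.981, limma with Benjamini-Hochberg). After subtraction of the row trend it was -0.48 with overlap. Pdia4, a protein disulfide isomerase, read 0.29, 0.26 and -0.22 and then -0.56, -0.34 and -1.03, a difference of -0.75 ± 0.25. Dnajb11, a co-chaperone of BiP, read -0.18, 0 and 0.01 and then -0.36, -0.45 and -0.47, a difference of -0.37 ± 0.15 that kept this value with the row trend subtracted. Canx, the lectin chaperone of glycoproteins, read 0.12, -0.27 and -0.22 and then -0.41, -0.49 and -0.81. Arrays 2 and 3 were already below 0 for Canx, and the difference was -0.45 ± 0.20, or -0.28 trend-subtracted. The members without overlap given next were named after their values were seen, and not every lower one is given in this paragraph. Dnajc3, which restrains the kinase PERK, read 0.38, -0.94 and -0.92 and then -1.56, -1.60 and -1, so array 1 stood far above arrays 2 and 3, array 6 was close to those 2, and the difference was -0.89 ± 0.40. Dnajb9 (-0.31) and Uggt1 (-0.23), a co-chaperone and a folding sensor of glycoproteins, had small differences, both with overlap when trend-subtracted, and Ppp1r15a (GADD34), which ends the translational arrest of the stress response, was the single one higher, by 0.29, and by -0.01 with the row trend subtracted. Hspa5 differed by -0.19 ± 0.24 with overlap (-0.06 trend-subtracted), and Xbp1, a transcription factor of the response, by -0.55 ± 0.30 with overlap.

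**Figure D5:**
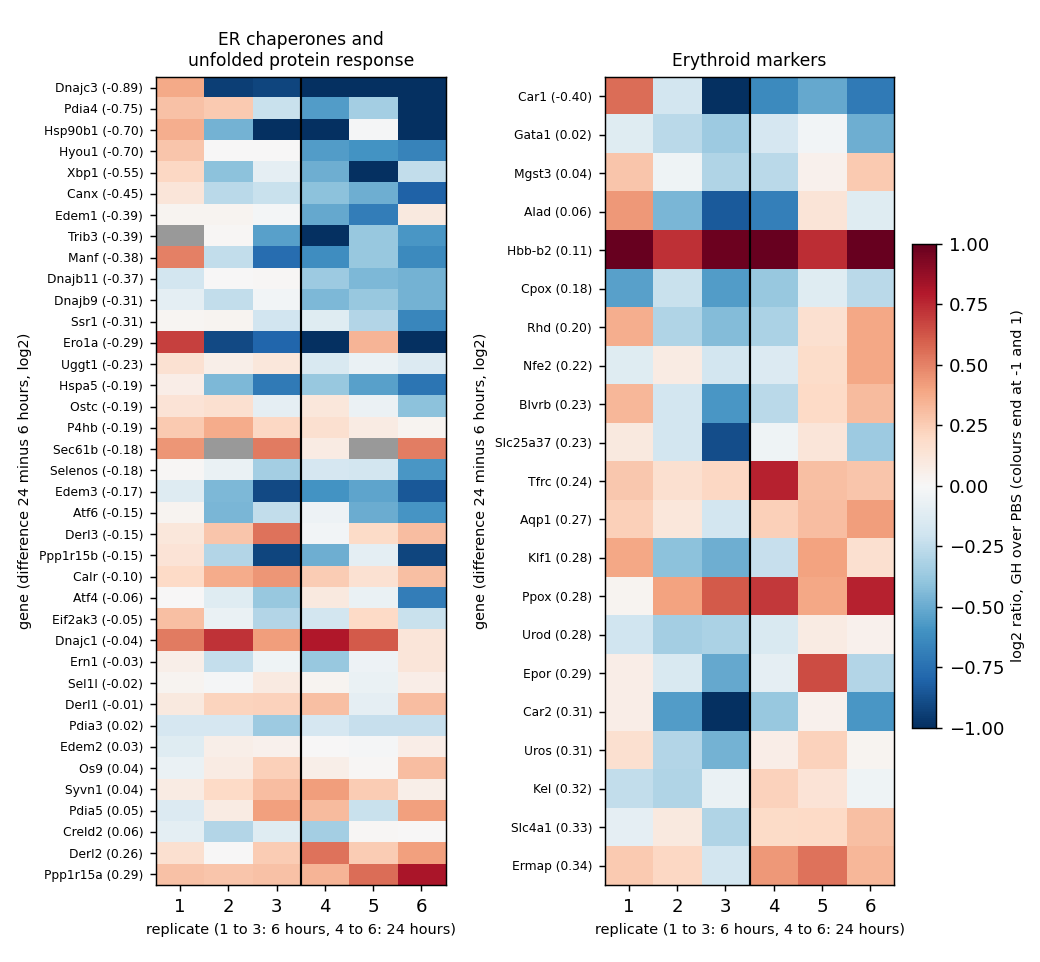
Log2 ratio of each measured member of the endoplasmic reticulum list (left) and the erythroid list (right) on the 6 arrays, as a colour from blue (below 0) to red (above 0) that ends at -1 and 1, grey where there is no value; genes are ordered by their difference, in parentheses. Chaperones turn bluer to the right of the line between the times (median difference -0.17), and erythroid markers redder (median 0.24), while array 1 stands out as red in many rows of both.

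Erythroid markers, from the red cell precursors of marrow, were above 0 in 20 of 21 measured members. The median difference was 0.24, from 0.12 to 0.33 when each array was left out, 0.32 within the shared file code and 0.21 with the row trend subtracted, where 15 of 21 were above 0. Yet the list medians of the arrays overlapped: 0.16, -0.18 and -0.36 at 6 hours and -0.14, 0.18 and 0.16 at 24 hours. Array 1 read like arrays 5 and 6, and array 4 like array 2. Members higher without overlap numbered 5 of 21, next to 4.95% of all features, and 0 with the row trend subtracted, where each gene named here overlapped. Slc4a1 (band 3), the anion exchanger of the red cell membrane, read -0.09, 0.10 and -0.30 and then 0.19, 0.20 and 0.30, a difference of 0.33 ± 0.17. Kel, a blood group protein, read -0.25, -0.30 and -0.07 and then 0.23, 0.14 and -0.04, a difference of 0.32 ± 0.16. Ermap, an erythroid membrane protein, and Urod, an enzyme of haem synthesis, differed by 0.34 ± 0.19 and 0.28 ± 0.16. Trend-subtracted, Slc4a1 and Kel differed by 0.35 and 0.44, and Ermap and Urod by 0.21 each. Tfrc, the transferrin receptor, differed by 0.24 ± 0.19 and was named after its values were seen.

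Neutrophil lineage markers had the largest list median of all, -0.51, with 10 of 11 measured members below 0, but it rested on array 1. List medians were 0.15, -0.56 and -1.25 at 6 hours and -1.49, -0.56 and -0.70 at 24 hours, so arrays 2 and 5 read the same and array 3 was lower than arrays 5 and 6. The median difference was -0.12 without array 1, -0.20 without array 4 and -0.85 without array 3, and -0.05 within the shared file code. Stfa1, a cystatin of neutrophils, read 0.76, -0.86 and -1.47 and then -2.47, -1.12 and -1, a difference of -1 ± 0.66. Mpo, myeloperoxidase, was lower without overlap by a value of -0.51 ± 0.18, but only 1 of its 3 rows carried it: the rows gave -0.02, -0.02 and -1.47. Megakaryocyte and platelet markers were below 0 in 6 of 6 measured members, with a median of -0.22 and list medians of 0.29, 0.20 and -0.38 early and -0.17, -0.33 and -0.41 late. The median was -0.10 without array 1, -0.35 without array 3 and -0.03 without both arrays 1 and 6. Ppbp, a platelet chemokine, read 0.75, 0.37 and -1.15 and then -1, -0.84 and -0.74, so array 3 was with the late arrays. T and NK cell markers had a median of 0.16, with 6 of 8 above 0, which was 0.03 without array 1, 0.32 without array 3 and 0.03 within the shared file code. Chemokines and cytokines had a median of 0.18 with 8 of 12 above 0, which was 0.03 without array 6, 0.06 without array 3 or array 5 and 0.30 without array 4. Cxcl16, the ligand of CXCR6, was higher without overlap by 0.42 ± 0.19, or 0.22 trend-subtracted.

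Skeletal muscle markers differed between arrays more than between times. List medians were 0.09, 0.40 and 0.83 at 6 hours and 0.88, 0.10 and 0.18 at 24 hours, so arrays 3 and 4 were high and arrays 1, 5 and 6 low. The median difference of -0.19 (9 of 24 above 0) was 0.04 without array 3, 0 without array 5, -0.04 without array 6, -0.32 without array 1 and -0.40 without array 4, and it was -0.42 within the shared file code. Smpx, a small muscle protein, read 0.32, 0.31 and 0.48 and then 0.52, -0.27 and -0.34, a difference of -0.40 ± 0.26 (-0.20 trend-subtracted). Cox6a2, the muscle form of a cytochrome oxidase subunit, was higher without overlap by 0.21 ± 0.15, but with overlap when trend-subtracted (0.28). Ratios of muscle and marrow markers thus move with single arrays, and their part in other differences was not tested.

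Genes of energy metabolism were lower at 24 hours in most members. Of 34 measured genes of glycolysis and the citric acid cycle, 24 were below 0, with a median of -0.17 (-0.10 without array 3 or array 5, -0.11 without array 6, at most -0.15 without any other, and -0.17 with the row trend subtracted). List medians were 0.19, 0.21 and 0.16 early and 0.20, -0.06 and -0.03 late, so array 4 read like the 6-hour arrays. Members lower without overlap were 4 of 34, next to 3.68% of all features, and 3 of them, Pdha1, Dlat and Dlst, encode subunits of the pyruvate and 2-oxoglutarate dehydrogenase complexes; the fourth, Idh3b, is a subunit of isocitrate dehydrogenase. Pdha1 read 0.18, 0.18 and 0.47 and then 0.14, -0.23 and -0.49, a difference of -0.47 ± 0.21. Both of its rows gave negative differences, the second with overlap. Dlat read 0.28, -0.16 and -0.05 and then -0.34, -0.18 and -0.74, with a narrow gap between arrays 2 and 5. Its difference was -0.44 ± 0.22, and its rows gave -0.33 and, with overlap, -0.55. Dlst and Idh3b, named after their values were seen, differed by -0.23 and -0.27.

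Proteasome subunits and splicing factors had like medians of -0.19 and -0.17, with 25 of 33 and 31 of 43 measured members below 0. Without array 1 both were at -0.07, and without both arrays 1 and 6 at -0.07 and -0.02. The proteasome median was -0.35 without array 3, and the splicing median was -0.10 without array 6. In both lists array 1 was high and array 3 was already low. For the proteasome the list medians were 0.21, -0.01 and -0.41 early and -0.29, -0.25 and -0.17 late, and for splicing 0.06, -0.09 and -0.28 and then -0.34, -0.10 and -0.34. Members lower without overlap were 1 of 33 and 2 of 43, next to 3.68% of all features, and 0 were higher. They were Psmc4 of the proteasome (-0.17), and Prpf19 and Prpf8 of splicing. Psmc4 and Prpf19 (-0.49 ± 0.22, or -0.37) overlapped when trend-subtracted. Prpf8, the core protein of the spliceosome, read 0.32, -0.29 and -0.29 and then -0.56, -0.38 and -0.45, so array 1 made most of its difference of -0.38 ± 0.22. Psma6, a subunit of the proteasome core, read 0.34, -0.36 and -0.54 and then -0.86, -0.51 and -0.94, with overlap that ended when trend-subtracted (-0.53).

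Circadian clock genes make up the feedback loop that keeps daily rhythm, and the sources used here do not state at which hour of the day bone was taken. List medians were 0.18, -0.05 and -0.04 early and -0.38, -0.14 and -0.32 late, without overlap, but with overlap once the row trend was subtracted, and the median difference of -0.15 was -0.06 without array 6, -0.08 without array 1, -0.09 without array 2 and 0.05 within the shared file code. Npas2, a partner of BMAL1, was higher without overlap, from 0.15, 0.30 and 0.19 to 0.70, 0.61 and 0.73, with a spread within each time of at most 0.15 units. Its difference was 0.47 ± 0.15, against the direction of its list, and kept a gap with the row trend subtracted (0.35). Arntl (BMAL1) read 0.31, -1.79 and -1.29 and then -1.22, -0.74 and -1.94, so array 1 alone was above 0 and the difference was -0.38 ± 0.58. Cry2 and Nr1d2, repressors of the clock, each differed by -0.37 with SEs of 0.30 and 0.36. Liver GH target genes, mostly unmeasured in bone, had 5 of 6 above 0 and a median of 0.25, which was 0.10 without array 6, 0.36 without array 4 and 0 without both arrays 1 and 6. Bcl6, a repressor that GH represses in liver, differed by 0.29 ± 0.25 (0.17 trend-subtracted), and Tbx3, a T-box factor, was above 0.9 on all 6 arrays and differed by 0.20 ± 0.26 (0.07 trend-subtracted).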

How the data were processed

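Two-colour array ratios of bone RNA were compared between 24 and 6 hours, with times and replicate numbers from the labels. The authors deposited log2 ratios, 21446 rows on 6 arrays; per the labels' protocols, RNA was amplified with T7 polymerase and labelled with Cy5 (GH) or Cy3 (PBS). Of extraction software and normalization nothing is stated (not given in the sources used here), and signal over background is unknown.

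A single gene symbol was found for 11813 rows, several for 559 and none for 9074; 11782 of the first matched the gene table. Rows of a gene were averaged over those with values on the most arrays, a rule chosen after the rows were seen. Features needed values on at least 2 arrays of each time (16676, of them 8801 named). The difference was fitted with limma 3.58.1 in R 4.3.3 (lmFit, eBayes; prior SD 0.278 on 2.49 degrees of freedom), an adjusted p below 0.05 (Benjamini-Hochberg) being called. The labels describe separate animals per pool, so the spread holds animal and technical variation. The code was tested on simulated data.

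The members, gene lists and tests were chosen with earlier results of these data known. As nothing was called, named genes are the 10 with the smallest p in each direction among named features with 6 values and no overlap, a set of GH response genes, and up to 4 members with the smallest p in each described list; others are marked where they appear. Clone and predicted names were skipped, and 1 gene of the 20 is not described in the text. The lists described are the 18 of signalling and bone roles and the 12 others with the largest absolute medians. Alternatives covered centring, scale, weights, missing values, file code and each array left out; 4 on the row trend (loess, span 0.05), arrays 1 and 6 and row averaging were added after the data were seen.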

Additional observations from a re-analysis of the deposited data

Results flagged for a closer look

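In 7 of 141 named genes every 6-hour array lay on one side of 0 and every 24-hour array on the other. The ratio of these genes thus had opposite signs at the times. Above 0 at 24 hours were Olfr887, with a difference of 1.04, Ascl2 with 0.90 and Pcdh18 with 0.83. Below 0 at 24 hours were Ptpro with -1.05, Gprc5c with -0.73, Mmp9 with -0.50 and Gli2 with -0.37. The difference was tested with limma in each, and none passed at an adjusted p of 0.981. For Pcdh18 and Gprc5c the pattern held only in the mean of 2 rows that differed in level. A row of Gprc5c was below 0 on all 6 arrays. Each row of Pcdh18 had ratios of the same sign at both times on some arrays. In Mmp9 too the pattern held only in the mean of 2 rows. At 6 hours 1 of them read -0.04 on array 3 and the other -0.01 on array 1. Of the 1305 features without overlap, 474 had opposite signs of the mean at the times, which is a looser measure. The share of all features with every array of a time on its own side of 0 was not counted.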

How the results depend on the processing

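The count of called features stayed at 0 under 21 of 22 alternatives. With the file code as a covariate it was 2, Dhodh with a difference of 4.26 and Parp16 with -5.02 (adjusted p = 0.0454 in limma). The 500 features at an unadjusted p below 0.05 became 890 with that covariate and 891 within the shared code, and 319 to 775 when each array was left out. Features without overlap went from 1305 to 6367 within the shared code, where 1 array faces 3, to 4232 without arrays 1 and 6, and to between 2183 and 3336 without 1 array; fewer arrays separate more often by construction. The slope of 24 on 6 hours, 1.15, was 0.892 within the shared code, 0.812 without arrays 1 and 6, 0.873 with the row trend subtracted and the arrays scaled to 1 median absolute deviation, and 0.904 to 1.29 without 1 array. The cause of these shifts was not tested. Of 630 list medians under alternatives, 36 had the other sign, in 15 of 30 lists. Of 2960 values of the 141 named genes, 81 had the other sign. For the 20 genes with the smallest p it was 0 of 419. Their choice without overlap fixed the sign within the shared code and without each array. The lowest adjusted p of any named gene was 0.668. Averaging all rows of a gene also called 0. No paired analysis was possible because the 2 times share no replicate number.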
